A study of Mus musculus with 24 samples.

Results

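Genes of pericytes and myofibroblasts were followed in mouse kidney through ureter obstruction and recovery from it. The set held 10 genes chosen by name: the growth factor gene Pdgfb, the receptor genes Pdgfrb and Pdgfra, the contractile and cytoskeletal genes Acta2, Tagln, Des, Myh11 and Cnn1, the matrix gene Postn, and Fap. A gene was taken where the symbol of a row in the deposited table equalled its name, which gave 9 of the 14785 genes of the table. Fap, a fibroblast surface protease gene, is not analysed here. Expression was measured by bulk RNA sequencing of polyA-selected RNA in 24 male C57/BL6 mice, aged 8 to 9 weeks at the start. The samples are labelled as kidney cortex, and each group held 4 sequenced animals, chosen from 10.

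The sham group had sham surgery. UUO2 (unilateral ureter obstruction) had 2 days of ureter ligation, and UUO7 had 7 days. R1W, R2W and R4W had 7 days of ligation and then reimplantation of the ureter, followed by 1, 2 or 4 weeks of recovery. One library labelled R4W in its title, replicate 2, carries the R2W treatment label and was grouped by title. The labels name no transgene or deletion, and all groups shared strain and sex. Age is given at the start only, and a single sham group served all times. Recovery time therefore cannot be told apart from age at sampling or time since surgery.

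Pericytes wrap capillaries, and in the kidney they lie beside resident fibroblasts in the space between tubules. PDGF-B, made largely by endothelial cells, binds PDGFR-beta on pericytes and holds them at the vessel wall. After injury these cells can become myofibroblasts, which build smooth muscle actin into stress fibres and lay down collagen-rich matrix. Vascular smooth muscle cells of the arteries share the actin and SM22 genes with them and in addition make smooth muscle myosin and calponin.

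Values are inferred to be FPKM, fragments scaled to transcript length and to library size, which can be set side by side between genes because they are per length. In 20 libraries low values fell on whole-fragment steps, from which 24944000 to 35424000 fragments per library were implied. No such steps were found in the 4 UUO2 libraries, and the design text speaks of 20 libraries sequenced together. A separate preparation of UUO2 and 2 days of obstruction cannot be told apart. Markers of proximal tubule, loop and distal nephron and podocyte were present in every group, but their levels differed. Of the 5 proximal tubule markers, Kap made up most of the sum, with means of 41300 FPKM in sham, 10500 in UUO2, 12600 in UUO7 and 21700 in R4W. The other 4 were lowest in UUO7, as Slc34a1 with 2760, 1230, 651 and 1610 FPKM, and Slc5a12 was higher in UUO2 (51.7) than in sham (40.4). FPKM is a share of the library, and the part of this difference in the changes of other genes was not tested. The summed level of 4 adipose markers (Adipoq, Plin1, Cfd and Cidec) was 121 FPKM in sham 2, 14.0 in UUO7 3, 825 in R4W 1 and 240 in R4W 3, and at most 1.49 in the other 20 libraries. Comparisons that use these 4 libraries were also run without them, an alternative chosen after seeing the data, and calls that this changed are given with their gene or list.

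By 7 days of obstruction, 7 of the 9 genes had risen, from 2.17 log2 units for Des to 3.15 for Tagln, and Myh11 and Cnn1 had not. At 2 days the set was split: Pdgfb, Acta2, Tagln, Des and Pdgfrb were higher than in sham, and Myh11 and Cnn1 were lower. After reversal, Pdgfb and Pdgfrb were called lower than in UUO7 at 1 week and at 4 weeks. Without the libraries with adipose markers the calls at 1 week were lost (limma adjusted p 0.068 and 0.0547) and those at 4 weeks held. The differences at 1 week were then -0.87 and -0.63, beside -0.90 and -0.63 with all libraries. Calls over all genes in that comparison went from 2145 to 932. All 7 genes were still above sham at 4 weeks. Myh11, in contrast, rose during recovery and ended at 4 weeks above sham. Differences are on the log2(FPKM + 1) scale with the moderated standard error (SE), tested with limma over all genes. A gene is called where its Benjamini-Hochberg adjusted p is under 0.05. In bulk tissue, more cells of a type and more RNA per cell cannot be told apart.

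**Figure D1:**
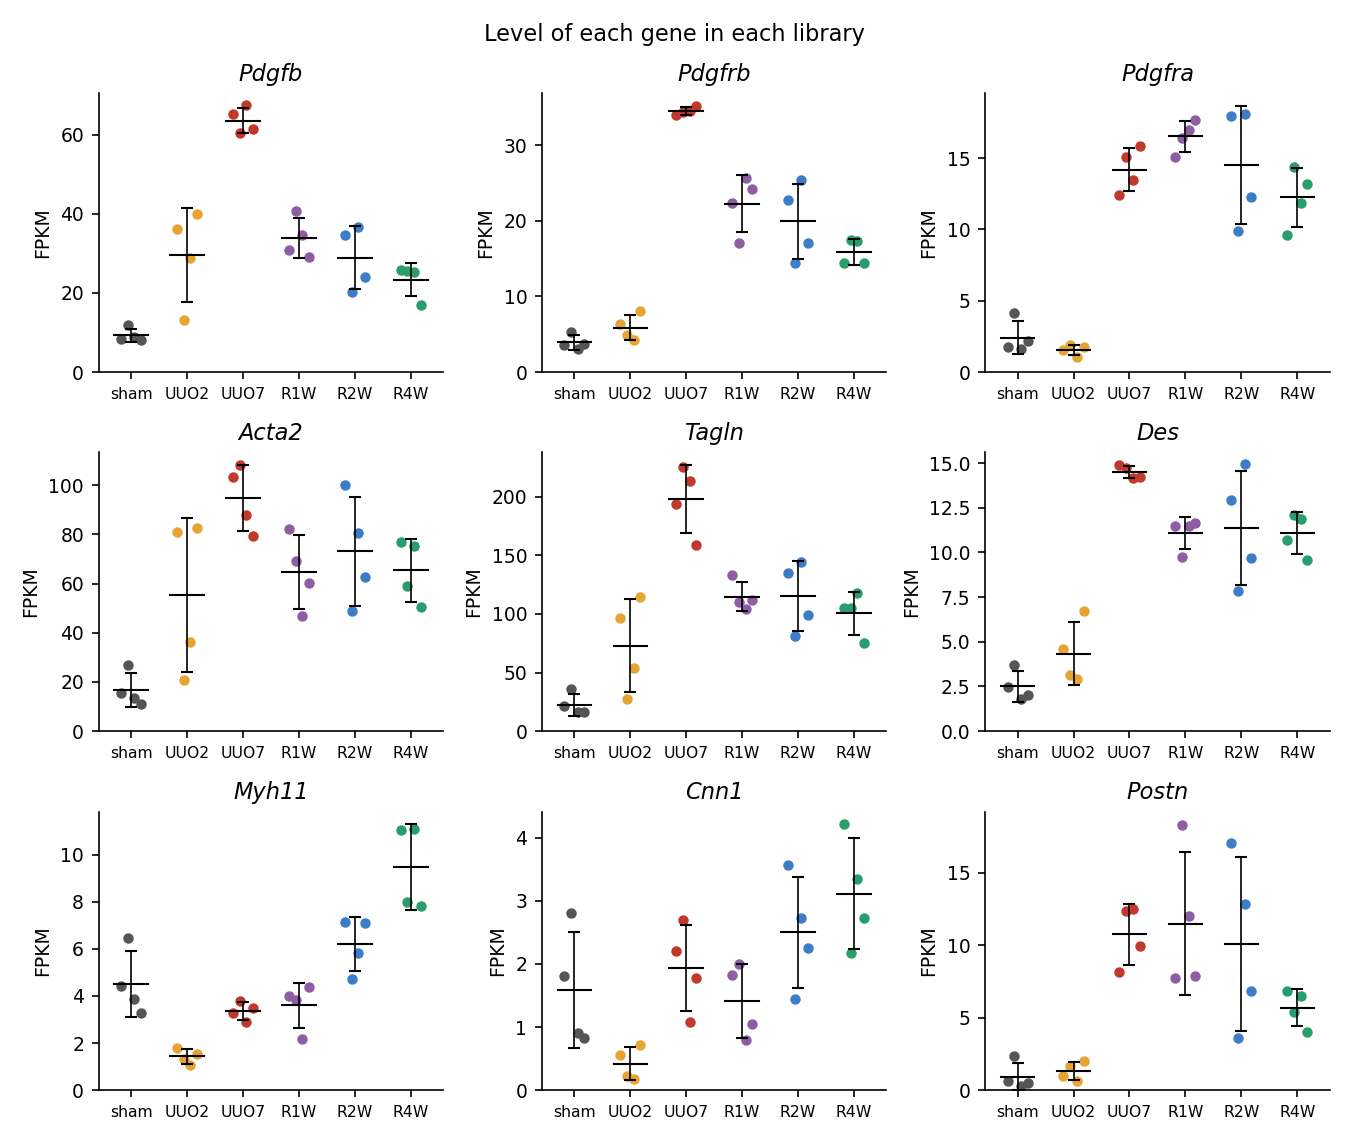
FPKM of 9 genes (y axis, linear from 0) in the 6 groups (x axis), with a point for each library, the mean as a line and the SD as bars (n = 4). Pdgfrb and Des are tightly grouped in UUO7, and Myh11 in R4W lies above every other library.

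The number of genes called has to be read against all genes, many of which moved. In UUO2 against sham 5 of 9 were higher, against 32.3% of all genes, and 2 were lower, against 17% of all genes. In UUO7 against sham 7 of 9 were higher, with 60.1% of all genes higher and 17.8% lower. In UUO7 against UUO2 all 9 were higher, against 52% of all genes. The median difference of the set in UUO7 against sham was 2.50, beside a median of 0.42 over all genes. Against sham, R1W had 7 of 9 higher with a background of 59.4%, R2W had 8 with a background of 56.1%, and R4W had 9 with a background of 54.8%. These comparisons share the 4 sham libraries.

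FPKM is relative to the rest of the library, and the background depended on how libraries were scaled. When every library was rescaled to a common median ratio, the median over all genes in UUO7 against sham went from 0.42 to 0.01. The share of calls that were higher went from 77.1% to 50%, and 36.5% of all genes were then higher and 36.5% lower. The same 7 of 9 genes remained higher, and Myh11 was lower. In UUO2 against sham the corresponding shares were 65.6% and 49.8%, and between UUO7 and UUO2 78% and 48.5%. For R1W against sham they were 80.1% and 49.3%, for R2W 81.3% and 48.8%. They were 82.6% and 48.2% in R4W against sham, and in R4W against UUO7 they were 36.4% and 52%. In R4W against R1W they were 26.4% and 50.2%. Libraries were divided by factors that averaged 0.814 in sham and 1.14 in UUO7. Calls that this rescaling changed are named with their gene below.

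**Figure D2:**
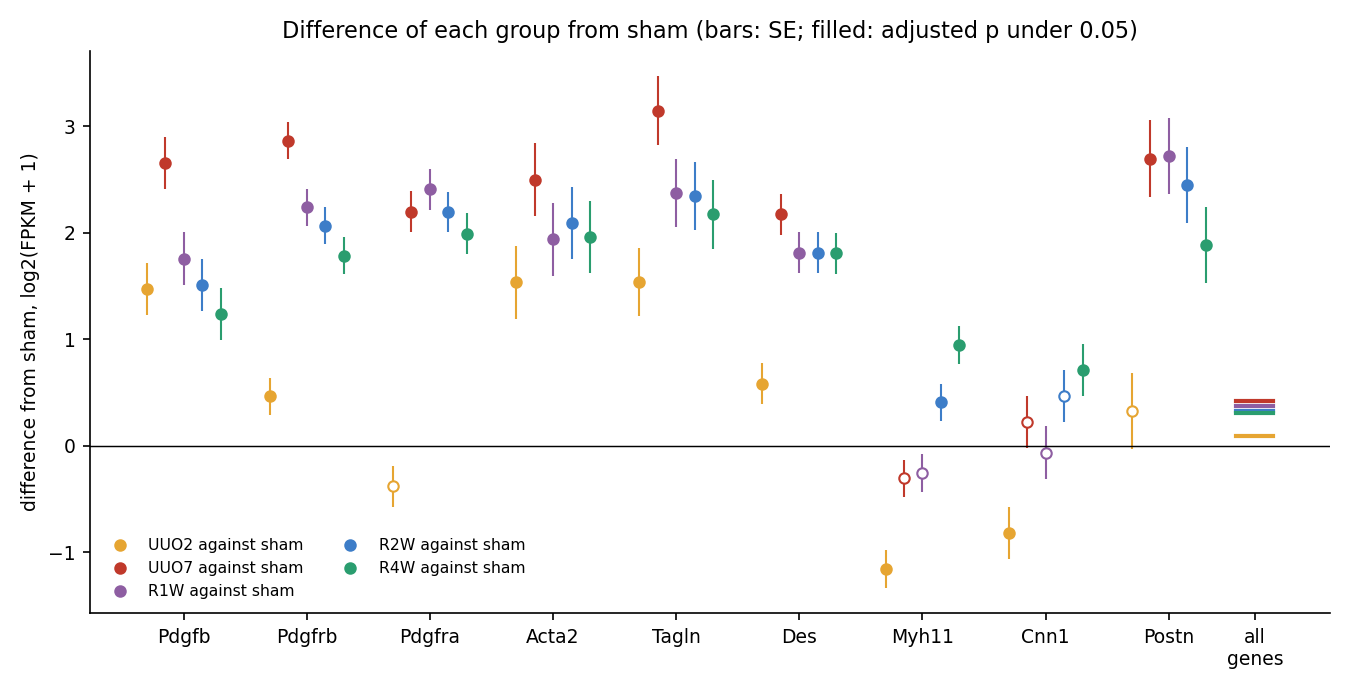
Difference from sham on log2(FPKM + 1) (y axis) for 9 genes (x axis) in 5 groups, with the limma SE as bars, filled points for adjusted p under 0.05, and the median over all genes as bars at the right. During recovery 7 genes stay between 1.23 (Pdgfb in R4W) and 2.72 (Postn in R1W) while Myh11 crosses from below to above sham.

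Pdgfb encodes the B chain of platelet-derived growth factor (chromosome 15, 79995900 to 80014808, minus strand, in the mm10 coordinates of the deposited table). In sham its levels were 8.41, 11.8, 8.93 and 8.18 FPKM, and in UUO2 they were 36.1, 13.1, 28.9 and 39.95 FPKM. In UUO7 they were 65.1, 60.3, 67.4 and 61.4 FPKM. The 3 groups did not overlap, and each step upward was called: 1.47 ± 0.24 (SE) for UUO2 against sham with a limma adjusted p of 5.07e-05, and 1.19 ± 0.24 for UUO7 against UUO2 with 0.000245.

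Recovery took Pdgfb down more than any other gene of the set. It stood at 31.0, 40.8, 34.7 and 29.1 FPKM in R1W and at 25.7, 25.5, 25.3 and 17.0 FPKM in R4W, with R2W between 20.2 and 36.7 FPKM. All of these lie below every UUO7 library and above every sham library. The fall from UUO7 was 0.90 ± 0.24 log2 units at 1 week (difference -0.90, limma adjusted p = 0.019) and the difference was -1.42 ± 0.24 at 4 weeks (0.000113). The first of these calls was lost without UUO7 3 (adjusted p = 0.0503), R1W 1 (0.0503) or R1W 4 (0.0605). At 4 weeks 46.4% of the log2 difference between UUO7 and sham was left, the lowest share among the 7 genes that rose.

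Endothelial cells, platelets and macrophages can make PDGF-B, and their markers are given beside it. The 6 endothelial markers (Pecam1, Cdh5, Kdr, Emcn, Tek and Egfl7) summed to 88.0 to 153 FPKM in sham, 53.7 to 139 in UUO2, 315 to 323 in UUO7 and 229 to 274 in R4W, with no marker at 0 in any group. From UUO7 to R4W mean Egfl7 went from 190 to 127 FPKM, Pecam1 from 40.4 to 31.8 and Cdh5 from 16.3 to 12.0. The other markers went up, Kdr from 7.18 to 9.56 FPKM, Tek from 8.49 to 11.3 and Emcn from 56.0 to 60.4. The 5 macrophage markers (Adgre1, Cd68, Csf1r, Lyz2 and C1qa) summed to 39.2 to 62.8 FPKM in sham, 61.7 to 140 in UUO2, 682 to 851 in UUO7 and 574 to 1130 in R4W. Their largest members did not all move alike: mean Lyz2 was 367 FPKM in UUO7 and 597 in R4W, while mean C1qa was 319 and 204. Of the platelet list, 2 of 5 genes had a row. Mean Pf4, a platelet chemokine gene, was 0.99 FPKM in sham, 5.38 in UUO2, 24.1 in UUO7, 19.0 in R1W, 13.5 in R2W and 13.6 in R4W, and mean Itga2b was 13.4, 8.62, 13.9, 15.5, 13.3 and 14.6 FPKM in the same order. The part of these cells in the Pdgfb result was not tested.

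Pdgfrb, the receptor that pericytes carry (chromosome 18, 61045150 to 61085061, plus strand), was at 3.65, 5.36, 3.10 and 3.70 FPKM in sham. UUO2 had 6.32, 4.89, 4.28 and 8.07 FPKM, and UUO7 had 34.0, 34.3, 34.5 and 35.2 FPKM. The 4 UUO7 libraries lay close together, at 34.5 ± 0.496 FPKM (SD, n = 4), and above all others. The difference between UUO7 and sham was 2.86 ± 0.17 (limma adjusted p = 3.09e-11), the smallest adjusted p of the set in that comparison.

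At 2 days the rise of Pdgfrb was small and unsure. Its difference from sham was 0.46 ± 0.17 (limma adjusted p = 0.0312), and the ranges overlapped. The call was lost after rescaling (0.0693), with a pseudocount of 10 (0.148) and without sham 1, 3 or 4 or UUO2 1 or 4 (0.0654 to 0.142). During recovery Pdgfrb was at 22.3, 17.0, 25.6 and 24.2 FPKM in R1W, 14.5 to 25.4 FPKM in R2W, and 14.4, 17.4, 17.3 and 14.4 FPKM in R4W. Every recovery library lay between the highest sham library and the lowest UUO7 library. The difference from UUO7 was -0.63 ± 0.17 in R1W (0.0206), lost without R1W 2 (0.0609), and -1.08 ± 0.17 in R4W (6.29e-05). Between R1W and R4W the difference was -0.45 ± 0.17 (0.0699), called without R1W 2 (-0.57, 0.032). At 4 weeks 62.3% of the log2 difference from sham was left.

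Pdgfra encodes the receptor of resident fibroblasts and of other stromal cells (chromosome 5, 75152292 to 75198215, plus strand). Its levels were 1.75, 4.14, 1.61 and 2.21 FPKM in sham, 1.54, 1.88, 1.05 and 1.74 in UUO2, and 12.4, 15.1, 13.5 and 15.8 in UUO7. Unlike the ligand, it was no higher after 2 days than in sham: the difference was -0.38 ± 0.19 (limma adjusted p = 0.105), and after rescaling it was called lower at -0.49 (0.0245). Between 2 and 7 days it rose by 2.58 ± 0.19 (9.87e-10). Its mean was highest in R1W, at 15.1 to 17.7 FPKM, but the R1W range overlapped those of UUO7 and of R2W, which spread from 9.86 to 18.06 FPKM and held the highest library. At 4 weeks, 9.59 to 14.4 FPKM, 90.6% of the log2 difference from sham was left.

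The balance of the 2 receptors shifted between obstruction and recovery. The ratio of Pdgfra to Pdgfrb within a library, which no scaling between libraries can move, was 0.479 to 0.772 in sham, 0.216 to 0.384 in UUO2 and 0.365 to 0.450 in UUO7. It was 0.663 to 0.964 in R1W, 0.681 to 0.790 in R2W and 0.666 to 0.914 in R4W. Every obstructed library was below every sham and recovery library, and the recovery range overlapped that of sham through sham 2 alone. The ratio of Pdgfb to Pdgfrb was 2.20 to 2.88 in sham, 2.68 to 6.76 in UUO2, 1.74 to 1.95 in UUO7 and 1.18 to 1.78 in R4W. UUO2 had the highest median, 5.33, beside 2.26 in sham. These ratios are descriptions and were given no test.

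**Figure D3:**
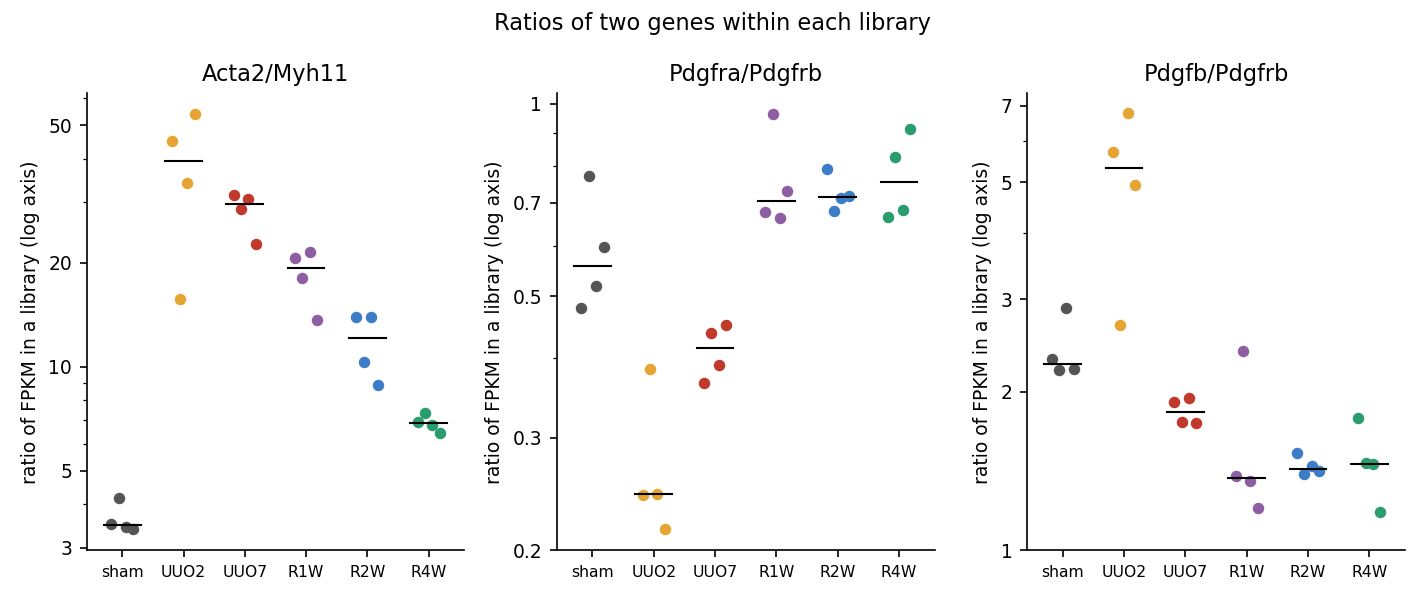
Ratio of the FPKM of 2 genes within a library (y axis, logarithmic) in the 6 groups (x axis), with a point for each library and the median as a line. Acta2/Myh11 runs from 3.39 to 4.17 in sham to at most 53.8 in UUO2 and back to 6.44 to 7.35 in R4W.

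Acta2, alpha smooth muscle actin, is the usual marker of myofibroblasts (chromosome 19, 34241090 to 34255336, minus strand). Sham libraries had 15.6, 27.0, 13.3 and 11.0 FPKM, UUO2 libraries 81.1, 20.8, 36.4 and 82.4 FPKM, and UUO7 libraries 103, 108, 88.0 and 79.2 FPKM. UUO2 was the most uneven group: UUO2 2 lay within the sham range and UUO2 1 and 4 within the UUO7 range. Acta2 was higher than in sham by 1.53 ± 0.34 at 2 days (limma adjusted p = 0.000847) and by 2.50 ± 0.34 at 7 days (1.01e-06). The step from 2 to 7 days, 0.97 ± 0.34 (0.0168), was not called after rescaling (0.108) nor without UUO2 2 (0.0963) or UUO2 3 (0.0531). In the authors' deposited table that step was 0.42 with an adjusted p of 0.473.

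In recovery Acta2 stayed above sham. R1W had 82.3, 69.2, 47.0 and 60.2 FPKM, R2W had 100.02, 49.0, 80.7 and 62.8 FPKM, and R4W had 76.7, 58.8, 75.4 and 50.3 FPKM. All 12 recovery libraries were above the highest sham library, and each recovery group overlapped the next. R4W differed from UUO7 by -0.54 ± 0.34 (limma adjusted p = 0.197), although the groups did not overlap, and from sham by 1.96 ± 0.34 (4.86e-05). In the authors' deposited table the difference of R4W from UUO7 was -0.47 with an adjusted p of 0.00704. Acta2 has a coding sequence close to those of other actin genes, so its values carry an uncertainty that was not measured.

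Tagln (SM22-alpha, an actin-binding protein of smooth muscle; chromosome 9, 45929619 to 45936058, minus strand) was the most abundant gene of the set per length. Its levels were 16.0 to 36.3 FPKM in sham, 27.1 to 115 in UUO2, 159 to 226 in UUO7, 104 to 133 in R1W, 81.2 to 144 in R2W and 75.0 to 118 in R4W. UUO7 was above every other library. The difference of UUO7 from sham was 3.15 ± 0.32 (limma adjusted p = 2.05e-08), and R4W was lower than UUO7 by a difference of -0.97 ± 0.32 (0.0168). The latter call was lost without R4W 4 (-0.84, 0.0585) and without the libraries with adipose markers (-1.10, 0.0526). Between R1W and UUO7 the difference was -0.77 ± 0.32 and was not called (limma adjusted p = 0.107). It was called in a fit without UUO2 (0.0236) and in a fit on the 2 groups (0.00583). In the authors' deposited table that difference was -0.79 with an adjusted p of 5.54e-06.

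Des encodes desmin, the intermediate filament protein of muscle cells and of pericytes (chromosome 1, 75360329 to 75368579, plus strand). It was at 1.79 to 3.72 FPKM in sham, 2.91 to 6.73 in UUO2 and 14.2 to 14.9 in UUO7. R1W had 9.74 to 11.6 FPKM, R2W 7.86 to 14.9 and R4W 9.59 to 12.1. At 2 days the difference from sham was 0.58 ± 0.19 (limma adjusted p = 0.0161), lost without sham 3 (0.0627) or UUO2 4 (0.0886) and with a pseudocount of 10 (0.0762). At 7 days it was 2.17 ± 0.19 (2.97e-09), and at 4 weeks of recovery 83.2% of this was left. Neither R1W nor R4W was called different from UUO7, with differences of -0.36 and -0.37 and limma adjusted p of 0.211 and 0.122, although neither overlapped UUO7. In the authors' deposited table both differences were -0.36, with adjusted p of 0.0123 and 9.3e-05.

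Upstream sequences are shown for Acta2 and Cnn1, a pair of smooth muscle genes that moved apart at 2 and 7 days. RefSeq promoters (GRCm38.p6) were found for 5 of the 10 genes: Acta2, Cnn1, Des, Pdgfra and Postn. The 250 bases before the start were searched on both strands for the CArG box, the motif bound by serum response factor, which is the same on both strands. No exact match was found in these windows. Acta2 had 2 matches with 1 of 10 letters off, beginning 84 and 34 bases before the start and printed in capitals, and the other 4 genes had none. Of all 32851 RefSeq promoters, 1.47% held an exact match in this window and 8.59% held one with up to 1 letter off. A match describes the letters and is not a shown binding site. The windows are chr19:34255374-34255623, minus strand, for Acta2 and chr9:22099003-22099252, plus strand, for Cnn1, 5′ to 3′.
Acta2: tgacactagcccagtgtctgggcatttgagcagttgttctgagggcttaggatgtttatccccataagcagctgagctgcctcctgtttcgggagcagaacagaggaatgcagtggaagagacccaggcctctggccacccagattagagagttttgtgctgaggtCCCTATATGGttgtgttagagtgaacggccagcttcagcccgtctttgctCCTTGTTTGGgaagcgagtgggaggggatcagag
Cnn1: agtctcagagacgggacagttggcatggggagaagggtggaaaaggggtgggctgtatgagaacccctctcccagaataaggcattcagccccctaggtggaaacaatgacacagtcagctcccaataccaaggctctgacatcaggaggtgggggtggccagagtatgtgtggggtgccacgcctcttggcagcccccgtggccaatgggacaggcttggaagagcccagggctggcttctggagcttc

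Myh11, smooth muscle myosin heavy chain, marks mature smooth muscle and differed in course from the 7 genes that rose (chromosome 16, 14194527 to 14291408, minus strand). It was at 4.43, 6.47, 3.86 and 3.26 FPKM in sham and at 1.80, 1.32, 1.07 and 1.53 FPKM in UUO2. UUO7 had 3.29, 3.78, 2.88 and 3.50 FPKM. The UUO2 libraries lay below all other 20 libraries, and UUO7 overlapped sham. The difference from sham was -1.16 ± 0.18 at 2 days (limma adjusted p = 1.89e-05) and -0.31 ± 0.18 at 7 days (0.117). The latter was called lower after rescaling (-0.70, 0.0009) and without sham 4 (-0.42, 0.0446), and in the authors' deposited table it was -0.91 with an adjusted p of 2.7e-07.

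After reversal Myh11 was at 3.98, 3.83, 2.19 and 4.40 FPKM in R1W, and at 7.15, 4.74, 5.81 and 7.11 FPKM in R2W. In R4W it reached 11.0, 8.00, 11.1 and 7.81 FPKM. All 4 R4W libraries lay above the other 20, including sham 2, the highest sham library. R4W was higher than R1W by 1.20 ± 0.18 (limma adjusted p = 0.0011), than UUO7 by 1.25 ± 0.18 (2.04e-05) and than sham by 0.95 ± 0.18 (0.000106). The last was 0.63 after rescaling (0.0029). Without the libraries with adipose markers the 3 differences were 0.98 (0.0272), 0.98 (0.00264) and 0.88 (0.00136). R4W against R1W counted 2 of 9 genes higher, Myh11 and Cnn1, against 5.06% of all genes. In the authors' deposited table Myh11 in R4W against sham was 0.70 with an adjusted p of 0.0012.

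Earlier in recovery the position of Myh11 relative to sham depended on scaling. In R1W the difference was -0.25 ± 0.18 (limma adjusted p = 0.198), and -0.61 (0.00293, called lower) after rescaling. In R2W it was 0.41 ± 0.18 (0.047), and 0.08 (0.699) after rescaling. The R2W call was also lost without sham 1, 3 or 4 or R2W 1, 3 or 4, with adjusted p from 0.0621 to 0.167, and with a pseudocount of 0.1 or in a fit without UUO2 (0.0574 in both).

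Tissue from outside the cortex can carry smooth muscle, so its markers are given beside Myh11. The 5 urothelium markers (Upk1a, Upk1b, Upk2, Upk3a and Krt5) summed to 1.45, 34.2, 2.16 and 2.31 FPKM in sham, 0.47 to 3.41 in UUO2, 16.8 to 31.6 in UUO7, and 141, 42.6, 102 and 76.1 in R4W, in the order of the replicates. Within R4W, replicates 1 and 3 had both the higher urothelium sums and the higher Myh11 levels, and they are also the libraries with adipose markers. R4W 2 and 4 had adipose sums of 1.49 and 0.46 FPKM, urothelium sums of 42.6 and 76.1 FPKM and Myh11 of 8.00 and 7.81 FPKM. Their urothelium sums and Myh11 levels were both above those of every sham library. In sham, replicate 2 was highest in all 9 genes and in both marker sums, and without it every call against sham was kept. The 5 podocyte markers also had their lowest median sum in UUO2 and their highest in R4W, at 48.3 FPKM in sham, 33.9 in UUO2, 90.0 in UUO7, 89.8 in R1W, 117 in R2W and 123 in R4W. Synpo differed from the other 4, with a mean of 12.3 FPKM in UUO2 against 8.82 in sham and its highest mean in UUO7. What part urothelium, adipose tissue or podocytes had in the Myh11 result was not tested.

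**Figure D4:**
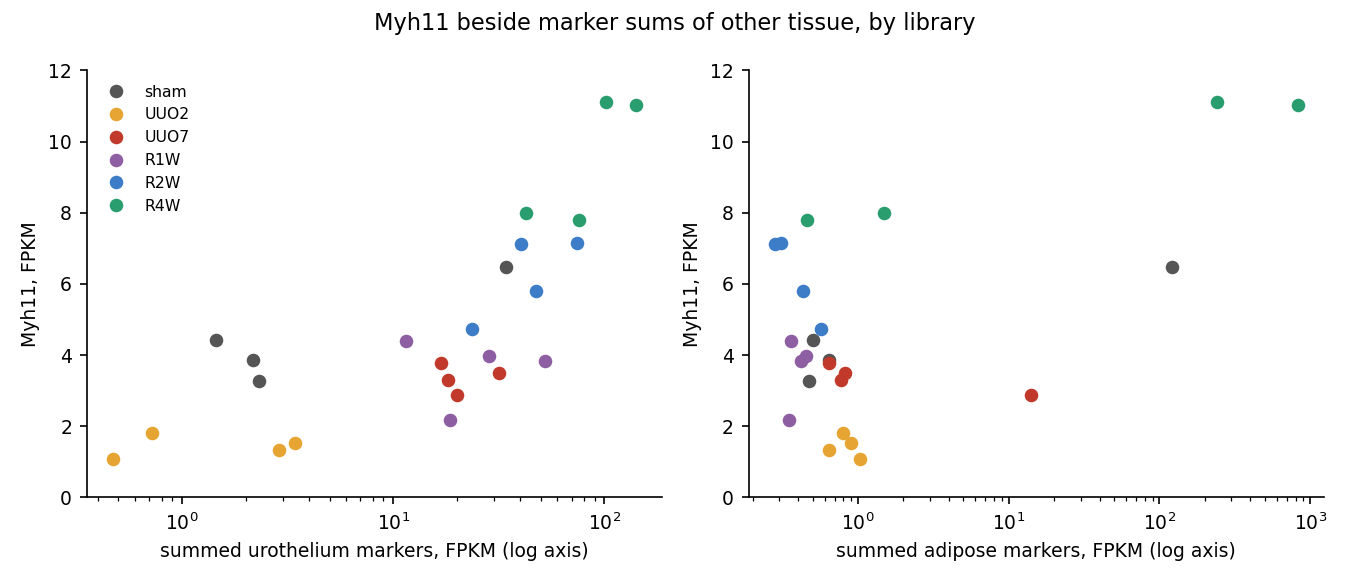
Myh11 in FPKM (y axis) against the summed urothelium and adipose markers in FPKM (x axes, logarithmic), with a point for each of 24 libraries coloured by group. The R4W libraries have the highest Myh11 and urothelium sums of 42.6 to 141, and among them R4W 1 and 3 have raised adipose sums.

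Cnn1, calponin 1, binds actin in mature smooth muscle (chromosome 9, 22099216 to 22109630, plus strand) and was the least abundant gene of the set over all libraries. It was at 1.81, 2.80, 0.91 and 0.82 FPKM in sham, 0.55, 0.22, 0.18 and 0.72 in UUO2, and 2.21, 2.69, 1.08 and 1.78 in UUO7. R1W had 1.82, 2.00, 0.79 and 1.05 FPKM, R2W 3.56, 1.45, 2.73 and 2.25, and R4W 4.21, 2.17, 3.35 and 2.72. Like Myh11 it was lowest in UUO2, where no library reached the lowest sham library, and had its highest mean in R4W. The difference from sham was -0.82 ± 0.25 at 2 days (limma adjusted p = 0.0091) and 0.22 ± 0.25 at 7 days (0.42).

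At 4 weeks Cnn1 was higher than in sham by 0.71 ± 0.25 (limma adjusted p = 0.0154), but the ranges overlapped. This call was lost after rescaling (0.089) and without sham 3 (0.0587), sham 4 (0.0636) or R4W 1 (0.0572). In the authors' deposited table it was 0.81 with an adjusted p of 0.141. Over R1W the difference of R4W was 0.78 ± 0.25 (0.034), lost without R1W 3 or 4 or R4W 1, 3 or 4 (0.0579 to 0.144). Without the libraries with adipose markers, the difference of UUO7 from sham was 0.58 and called (0.0365), that of R2W from sham was 0.67 and called (0.0141), and that of R4W from R1W was 0.54 and not called (0.194). R2W against sham was likewise called without sham 2 (0.0191) or R2W 2 (0.0352).

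Setting Acta2 against Myh11 within a library shows how far the 2 smooth muscle genes moved apart. The ratio was 3.39 to 4.17 in sham, 15.8 to 53.8 in UUO2, 22.6 to 31.4 in UUO7, 13.7 to 21.4 in R1W, 8.84 to 14.0 in R2W and 6.44 to 7.35 in R4W. No recovery library returned to the sham range, and the R4W libraries lay below all other operated groups. Between UUO7 and R4W the mean of Acta2 went from 94.7 to 65.3 FPKM while that of Myh11 went from 3.36 to 9.49 FPKM. Cnn1 kept closer to Myh11, with a ratio of 0.236 to 0.433 in sham, 0.167 to 0.471 in UUO2, 0.375 to 0.712 in UUO7 and 0.271 to 0.381 in R4W.

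Postn encodes periostin, a matrix protein secreted by activated fibroblasts (chromosome 3, 54361109 to 54391037, plus strand). In sham it was at 0.65, 2.33, 0.27 and 0.47 FPKM and in UUO2 at 0.96, 1.64, 0.65 and 1.98 FPKM, with overlapping ranges (difference 0.33 ± 0.36, limma adjusted p = 0.473). In UUO7 it was at 8.13, 12.4, 12.5 and 10.0 FPKM, above all of these (2.70 ± 0.36 over sham, 6.95e-07). Recovery values spread widely, from 7.75 to 18.3 FPKM in R1W and from 3.62 to 17.1 in R2W, and narrowed to 4.03 to 6.87 in R4W. R4W was below every UUO7 library without passing the test (-0.81 ± 0.36, 0.0652) and remained above sham by 1.88 ± 0.36 (0.000124). In the authors' deposited table the difference of R4W from UUO7 was -0.73 with an adjusted p of 0.00509.

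Fewer genes of the set were called in R1W and R4W against UUO7 than against sham, and the number against UUO7 depended on the test. In R1W against UUO7 0 of 9 were higher and 2 lower, Pdgfb and Pdgfrb, where 6.47% of all genes were higher and 8.04% lower. At an unadjusted p under 0.05, 3 of the 9 genes differed, near the 30.5% of all genes. In R4W against UUO7 1 was higher, Myh11, and 3 were lower, Pdgfb, Pdgfrb and Tagln, where 17.6% of all genes were higher and 30.8% lower. The share called in R4W, 4 of 9, was near the 48.4% of all genes. The set's median was -0.36 in R1W and -0.54 in R4W, beside -0.02 and -0.08 over all genes. The authors' deposited table has 5 of the 9 lower and 1 higher in R1W against UUO7, and 6 lower and 1 higher in R4W against UUO7, at adjusted p under 0.05. Of all genes with an adjusted p in the authors' deposited table, 11.2% were lower and 10.3% higher in R1W against UUO7, and 27.3% lower and 26% higher in R4W against UUO7. The limma calls in R1W were lost without the libraries with adipose markers, at adjusted p of 0.068 for Pdgfb and 0.0547 for Pdgfrb. The differences were then -0.87 and -0.63, beside -0.90 and -0.63 with all libraries.

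Within groups, the levels of some pairs of genes varied together more than those of others. After each group's mean was subtracted, Pearson's r over 24 libraries on log2(FPKM + 1) ranged over the 36 pairs from 0.260 for Pdgfra and Pdgfb to 0.952 for Acta2 and Tagln. Pairs at the upper end, chosen after their values were seen, were Pdgfrb and Des (0.946) and Tagln and Pdgfb (0.875), and it was 0.791 for Myh11 and Cnn1. The ligand and its receptor, Pdgfb and Pdgfrb, had 0.562, and the receptors Pdgfra and Pdgfrb 0.728. Low values were 0.306 for Acta2 and Pdgfra and 0.314 for Pdgfb and Myh11. With libraries rescaled, r was 0.948 for Acta2 and Tagln, 0.934 for Pdgfrb and Des, 0.478 for Pdgfb and Pdgfrb, and 0.095 for Pdgfra and Pdgfb. These are descriptions, since genes of a library share its depth and tissue piece.

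Over all 24 libraries, the genes whose course was most like that of Pdgfrb were Loxl1, which crosslinks elastic fibres (r = 0.995), Mrc2, a collagen uptake receptor (0.993), and Fhl2 (0.991). Acta2 was closest to Tpm2, a muscle tropomyosin (0.984), to Tagln (0.976) and to Actn1, an actin crosslinker (0.951). Tagln was closest to Map7d1, Acta2 and Tgfb1i1, and Des to Pdlim1, Mical1 and Obsl1. Pdgfra was closest to Serping1, Cyth3 and Spon1, and Pdgfb to Smox, Rela and Rcc2. Postn was closest to Dcaf4, Slc2a6 and Ap3m2. Myh11 had less close neighbours, Tns2 (0.950), Nsf (0.915) and Pi16 (0.908), as had Cnn1 with Ppm1f (0.909), Myh11 (0.892) and Sncg (0.891). Differences between groups enter these correlations, and all genes share the libraries.

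Of 14 other smooth muscle contractile genes with a row, 11 were higher and 1 lower at 2 days, against 32.3% and 17% of all genes. At 7 days 14 were higher, against 60.1%, and at 4 weeks of recovery 13, against 54.8%. At 7 days they were led by Flna, filamin A (276 ± 10.4 against 27.3 ± 8.19 FPKM, SD, n = 4; 3.34 log2), Cnn2 (2.84) and Actn1 (2.66). Their median was 1.88 (1.41 after rescaling), and 1.31 (0.94) at 4 weeks of recovery, where Flna (2.70) and Cnn2 (2.31) led. Flna, Cnn2 and Actn1 are also made by many cells that are not muscle. Of the actin genes with a row, Actb (2.59), Actg2 (1.51) and Actg1 (1.20) were higher at 7 days, and Actb (1.49) and Actg1 (0.90) at 4 weeks of recovery.

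Of 17 other pericyte and mural cell genes, 4 were higher and 4 lower at 2 days, shares near the 32.3% and 17% of all genes. At 7 days 15 were higher and 0 lower, against 60.1% and 17.8% of all genes. The 4 lower ones were Rgs5 (4.23 ± 1.05 against 9.56 ± 1.36 FPKM in sham), a regulator of G protein signalling in pericytes, Kcnj8 and Abcc9, which form a potassium channel of mural cells, and the integrin gene Itga8. The 4 higher ones were Cspg4 (8.62 ± 0.862 against 5.33 ± 0.138 FPKM), the NG2 proteoglycan of pericytes, Heyl (0.49), a Notch target, Angpt1 (0.31), the angiopoietin of mural cells, and Ebf1 (0.26). The choice of these 8 was made with their values in view. At 7 days Ndufa4l2 (2.49), the guanylate cyclase subunit gene Gucy1a3 (2.26) and the adhesion gene Mcam (2.17) led. At 4 weeks 14 were higher, against 54.8% of all genes, led by Gucy1a3 (1.80) and Mcam (1.53). Ren1 and Akr1b7, the 2 markers of renin cells, another mural cell type, summed to 8.20 to 10.6 FPKM in UUO2 against 24.3 to 42.9 in sham, and 40.9 to 77.1 in UUO7. The 5 mesangial markers (Itga8, Gata3, Ptn, Agtr1a and Serpine2), of which Itga8 is also in the mural list, summed to 27.4 to 34.7 FPKM in sham, 24.3 to 33.4 in UUO2 and 116 to 158 in UUO7. Serpine2 carried most of this, with means of 6.0 FPKM in sham and 98.1 in UUO7, while Agtr1a had 13.8 and 12.3 FPKM. Mylpf, the 1 skeletal muscle marker of 5 with a row, was at most 4.01 FPKM in any library.

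Of 26 other fibroblast and myofibroblast genes, 14 were higher and 1 lower at 2 days, where 32.3% of all genes were higher and 17% lower. With a pseudocount of 10, 9 were higher and 0 lower, where 4217 and 2328 of all 14785 genes were. At 7 days 25 were higher, against 60.1% of all genes, and at 4 weeks of recovery 26 were higher and 0 lower, against 54.8% and 11.6% of all genes. Their median difference at 7 days was 2.91, beside 0.42 over all genes, and 2.45 at 4 weeks, beside 0.30. Thy1, a fibroblast surface protein (96.8 ± 4.99 against 1.31 ± 0.382 FPKM), Col3a1 (292 ± 47.6 against 6.41 ± 2.92) and Col1a1 (84.3 ± 8.66 against 2.21 ± 1.01) led at 7 days. The fibrillar collagen genes Col3a1 (111 ± 26.6 FPKM) and Col1a1 (36.4 ± 8.40) led at 4 weeks. In R1W against UUO7, 5 of the 26 were lower, against 8.04% of all genes: Thy1, Fbln2, Col1a1, Sparc and Loxl1. This count was 3 with a pseudocount of 0.1, and 1 lower and 1 higher without the libraries with adipose markers. Without those libraries 25 of the 26 were higher at 4 weeks, and 25 at 7 days. At 2 days Col3a1 had risen by 2.83 and Col1a1 by 2.69, when Postn and Pdgfra had not passed the test. The 5 lower genes and the values at 2 days were chosen after they were seen.

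After rescaling, the mural list had 13 genes higher and 1 lower at 7 days, the contractile list 12 higher and the fibroblast list 25 higher, where 36.5% of all genes were higher and 36.5% lower. Of 7 regulators of the serum response factor and myocardin family with a row, 6 were higher and 1 lower at 7 days, against 60.1% and 17.8% of all genes, and likewise at 4 weeks of recovery, against 54.8% and 11.6%. Fhl2 (2.85), Tcf21 (2.68), a transcription factor of stromal progenitors and podocytes, and Klf4 (1.91) led at 7 days, and Tcf21 (2.28) and Klf4 (1.76) at 4 weeks. Fhl1 was lower, at 92.5 ± 14.2 FPKM in sham and 35.8 ± 3.28 in UUO7, and still lower at 4 weeks (-0.46). Of 6 other PDGF pathway genes, 4 were higher and 1 lower at both times, shares near those of all genes. After rescaling 3 were higher and 2 lower at both, where 36.5% of all genes were higher and 36.5% lower at 7 days, and 28.9% and 31.1% at 4 weeks. Pdgfrl, a receptor-like gene (2.57), Plat, the protease that activates PDGF-C (2.33), and the A chain gene Pdgfa (1.52) led at 7 days, and Pdgfrl (2.05) and Plat (1.80) at 4 weeks. Furin, a protease that processes PDGF chains, was lower at both (-0.43 and -0.30).

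**Figure D5:**
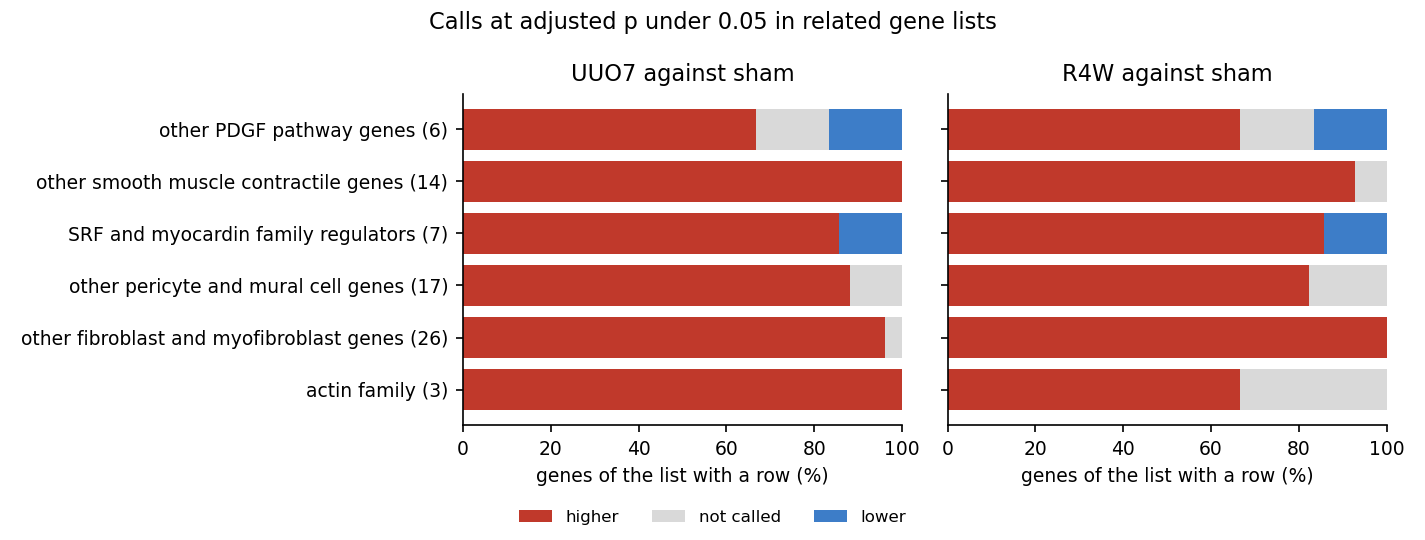
Share of each related gene list (x axis, percent of genes with a row, whose number is in brackets) called higher, lower or neither in UUO7 and in R4W against sham. All 26 fibroblast genes were higher in R4W, and the lists had 0 or 1 gene lower.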

How the data were processed

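Bulk RNA-seq libraries of 24 mouse kidneys in 6 groups of 4 were used. The deposited table gives a value per gene and library with no unit in its header. The authors deposited these values already scaled to transcript length and depth, and FPKM was inferred as their unit from the values and from their whole-fragment steps. Per the submitters' processing notes, FastQC, RSEM, Bowtie2 and DESeq2 were used with mm10, in no stated order. The deposited table, per the file headers, also holds the authors' log2 fold changes and adjusted p-values, whose test is not stated there. The smallest gene mean in the table is 1, so genes of lower mean are not analysed here.

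The fit used limma 3.58.1 under R 4.3.3, with moderated variances that follow a trend in mean level, on log2(FPKM + 1) over all 14785 genes and 24 libraries, with 1 coefficient per group, and p-values were adjusted by Benjamini-Hochberg over all genes. The log2(FPKM + 1) scale understates changes of low genes. A count model was not used, because the deposited values are not counts. Groups and replicate numbers come from the titles, and each replicate is a separate animal.

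The members and gene lists were chosen with earlier results of these data known. All members are named. Of each list, up to 3 genes higher and 3 lower by difference at 7 days are named, and up to 2 of each at 4 weeks of recovery. List genes named at 2 days, and in R1W against UUO7, fall outside this rule and were chosen after their values were seen. For each member the 3 genes of highest Pearson r are named.

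Depth was implied in each of the 20 libraries with steps from low values of 362 to 425 genes with a single annotated transcript. Of these values 70.2% to 76.3% were within 0.2 of a whole fragment, over transcript lengths reduced by a fragment length (Python 3.11.15, numpy 2.4.6). Evenly spread values would give 40%. Depth and fragment length were chosen for the best fit, which raises this share, and the UUO2 libraries reached 48.0% to 50.9%. The replicate numbers did not pair the animals: the mean correlation of same-numbered deviations was between -0.174 and 0.148 over the comparisons. Alternatives were rescaled libraries, pseudocounts of 0.1 and 10, a mean of at least 5, fits on the 2 groups compared or without UUO2, R4W 2 placed in R2W, a replicate block, stricter calls and each replicate left out. Fold changes in the authors' table were read as the group named second in the header over the group named first, from their positive slope against the deposited values.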

Additional observations from a re-analysis of the deposited data

Results flagged for a closer look

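Pdgfb in R4W replicate 4 was 17.02 FPKM, apart from the other 3 libraries of its group at 25.32 to 25.68 FPKM. Des in R1W replicate 2 was 9.74 FPKM, apart from the others at 11.50 to 11.63 FPKM. The gap to the nearest library, over the range of the group, exceeded Dixon's critical value for 4 samples in both. Of 54 such checks chance gives about 1 in 20, or 2.7, so 2 are no more than chance gives.

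Myh11 moved in opposite directions from sham in 2 groups, with every library of each group outside the sham range: the difference was -1.16 in UUO2 and 0.95 in R4W. Tested directly with limma, R4W exceeded UUO2 by 2.10 ± 0.18 (adjusted p = 6.67e-09), in a contrast added after the values were seen. The UUO2 libraries also lacked the whole-fragment steps of the other 20, and their part in the difference was not tested.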

How the results depend on the processing

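Of 1296 recomputed differences of single genes, 1208 kept direction and side of the threshold, 46 lost the call, 20 gained it and 22 changed sign, all of the last between values that were not called. With rescaled libraries, Cnn1 in UUO7 against sham was -0.0728 and Des in R4W against R1W 0.0601. Without the libraries with adipose markers, Myh11 in R1W against UUO7 was -0.0023, Acta2 in R4W against R1W -0.22 and Cnn1 in R1W against sham 0.14. When single replicates were left out, the range was -0.12 to 0.15 for Acta2 and -0.0607 to 0.0565 for Des in R4W against R1W, -0.21 to 0.14 for Cnn1 in R1W against sham, and -0.0338 to 0.22 for Myh11 and -0.21 to 0.17 for Postn in R1W against UUO7. The cause was not tested.

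The number of genes called, of 9, moved as follows. In UUO2 against sham, 7 became 4 with a log2 difference of at least 1. In R1W against UUO7, 2 became 4 in a fit on the 2 groups, and 0 at an adjusted p under 0.01, with a log2 difference of at least 1, or without the libraries with adipose markers (3 at an unadjusted limma p under 0.05 in the last, and 3 in the full data). In R4W against UUO7, 4 became 7 in a fit on the 2 groups. These fits added Tagln and Des in R1W, and Acta2, Postn and Des in R4W. In R4W against R1W, 2 became 1 with a pseudocount of 0.1, in a fit on the 2 groups, at an adjusted p under 0.01, with a log2 difference of at least 1, or without the libraries with adipose markers, 4 in a fit without UUO2, and 0 with a mean of at least 5. That filter removes Myh11 and Cnn1 themselves, and 4 of the 7 genes left had an unadjusted limma p under 0.05. Over all 14785 genes, calls in R4W against R1W went from 2830 to 161 in the fit on the 2 groups and to 316 without the libraries with adipose markers. They were 2548 with a pseudocount of 0.1 and 3153 in the fit without UUO2. In R1W against UUO7 the 2145 calls became 2119 in the fit on the 2 groups and 932 without the libraries with adipose markers. In R4W against UUO7 the fit on the 2 groups took 7155 calls to 7719. Leaving out single replicates gave 1 to 2 of the 9 genes in R1W against UUO7 and 1 to 3 in R4W against R1W. In the other 7 comparisons every replicate left out kept the count within 1.5 times, from 5 to 7 in UUO2 against sham to 8 to 9 in R4W against sham.

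With a replicate block the counts were 7, 7, 9, 2, 4, 2, 7, 8 and 9 over the 9 comparisons, the same as without it, and the block changed no call. In no comparison did every library correlate best with its own number. Fits on the 2 groups also lost Pdgfrb and Des in UUO2 against sham (adjusted p 0.0791 and 0.0814), Acta2 in UUO7 against UUO2 (0.0618) and Myh11 in R2W against sham (0.0845). For the gene lists, leaving out the libraries with adipose markers kept the number called within 1.5 times, except in R1W against UUO7, where 5 fibroblast genes became 2 and 1 PDGF pathway gene 0, and in UUO2 against sham, where 2 PDGF pathway genes became 1. Placing R4W 2 in R2W changed no call. Precision is set by 4 animals a group, and the depth of UUO2 is unknown.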
